A study of Mus musculus with 6 samples.

Results

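The cytochrome P450 genes of the mouse encode heme-containing monooxygenases, which insert an oxygen atom into fatty acids, sterols, hormones, drugs and other foreign compounds. They were taken as the genes whose symbol begins with Cyp and a digit, without the retinoic acid hydroxylases Cyp26a1, Cyp26b1 and Cyp26c1 and without symbols ending in -ps. The rule found 104 of the 34745 genes in the table. Of these, 34 had no count in any library, 10 had between 1 and 9 counts over all libraries, and the 60 with 10 or more counts are described here. A filter on low counts left 48 of the 60 for testing, and the other 12 are given as counts.

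RNA was sequenced from LSECs, the sinusoidal endothelial cells that line the blood spaces between hepatocytes. The mice were, by their labels, Tgfbr2 ECKO mice, an endothelial knockout of the type II TGF-beta receptor, and Tgfbr2f/f littermates, which carry the floxed allele. Mice of both genotypes received carbon tetrachloride (CCl4), a hepatotoxin that causes fibrosis, into the peritoneum 2 times a week for 6 weeks, so that no group without CCl4 entered the comparison. Each genotype had 3 libraries, titled ECKO-CCL4 for ECKO and WT-CCL4 for Tgfbr2f/f. The labels used here name neither the promoter of the Cre driver, nor age, sex or the isolation of the cells, and do not say whether a library is 1 mouse, so p-values measure the spread between these libraries.

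P450 enzymes of families 1 to 3 oxidise foreign compounds in the endoplasmic reticulum and draw their electrons from the reductase Por, while those of family 4 mostly hydroxylate fatty acids and others build or break down sterols and bile acids. In the liver most of them are known as hepatocyte genes. Many answer to ligand-activated receptors, among them the aryl hydrocarbon receptor, PXR, CAR and PPAR alpha, and in mice a subset differs between males and females under the pulse pattern of growth hormone. CCl4 itself is activated to a radical by P450 enzymes, chiefly Cyp2e1.

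Library totals lay between 17171850 and 18671217 counts for ECKO and between 17632271 and 25062755 counts for Tgfbr2f/f. Mitochondrial transcripts took 25.3% ± 6.47 of the counts in ECKO and 16.4% ± 6.33 in Tgfbr2f/f (SD, n = 3 each). Tgfbr2 itself had a mean of 498 CPM (counts scaled to TMM effective library sizes) in the libraries labelled ECKO and 427 CPM in those labelled Tgfbr2f/f. That difference, 0.22 ± 0.10 (SE) on the log2 scale, did not pass the test (edgeR quasi-likelihood, Benjamini-Hochberg adjusted p = 0.228), and counts over the whole gene do not show whether the floxed part is missing. The ECKO label was therefore not checked by the counts, and ECKO below means the libraries so labelled. The 18 sinusoidal endothelial markers summed to between 36991 and 42269 CPM in ECKO and between 32474 and 37046 CPM in Tgfbr2f/f, with none at 0. The 30 hepatocyte markers, none of them at 0 in either group, summed to between 2030 and 3685 CPM in ECKO and between 1780 and 3150 CPM in Tgfbr2f/f.

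The coding stretch around the cysteine that holds the heme is shown for the P450 genes that passed the test, described below, and for Cyp4a12b. These 30 bases, read 5′ to 3′ on the coding strand from GENCODE M21 transcripts on GRCm38, begin at the phenylalanine codon of the signature F-x-x-G-x-R-x-C-x-G, in which x is any residue, and the cysteine codon is in capitals. Of the 60 genes described, 52 held this signature.
Cyp4a12a: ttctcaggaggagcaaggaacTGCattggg
Cyp4a12b: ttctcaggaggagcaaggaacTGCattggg
Cyp4a14: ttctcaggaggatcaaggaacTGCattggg
Cyp4a10: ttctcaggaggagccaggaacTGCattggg
Cyp3a11: tttgggaatggacccaggaacTGCcttggc
Cyp2d9: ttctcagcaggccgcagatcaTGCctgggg
The stretch lies within chr4:115328986-115331846 (plus strand) for Cyp4a12a, chr4:115435240-115438069 (plus) for Cyp4a12b, chr4:115487299-115489805 (minus) for Cyp4a14, chr4:115529502-115532543 (plus) for Cyp4a10 and chr15:82456466-82456595 (plus) for Cyp2d9, and in these it is joined across an intron. In Cyp3a11 it lies in a single exon at chr5:145858805-145858834 on the minus strand. Cyp4a12a and Cyp4a12b had identical letters here, and Cyp4a14 differed from Cyp4a12a at 1 base. So short a stretch does not measure likeness over the gene. Over the coding sequence Cyp4a12a and Cyp4a14 are identical at 75.6% of aligned bases.

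Cyp4b1, a family 4 enzyme that acts on fatty acids and on some protoxins, was by far the most abundant P450 transcript, at 355 ± 21.2 FPKM (the authors' unit, scaled to gene length and library size) in ECKO and 309 ± 20.3 FPKM in Tgfbr2f/f (SD, n = 3 each). Over the 6 libraries 27 of the 60 genes had a mean above 1 FPKM, and 6 were above 10 FPKM. After Cyp4b1, at a mean of 332 FPKM, these were Cyp2d22 at 41.6, Cyp1a1 at 37.9, Cyp20a1 at 19.1, Cyp2j6 at 11.3 and Cyp2e1 at 10.99 FPKM. All P450 genes together took 0.147% ± 0.0142 of the counts in ECKO and 0.154% ± 0.0275 in Tgfbr2f/f (SD, n = 3 each). Cyp4b1 alone made up 70.1% ± 4.81 of the P450 counts in ECKO and 59.4% ± 8.56 in Tgfbr2f/f, and without it the P450 share was 0.0444% ± 0.0111 in ECKO and 0.0638% ± 0.0246 in Tgfbr2f/f.

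**Figure D1:**
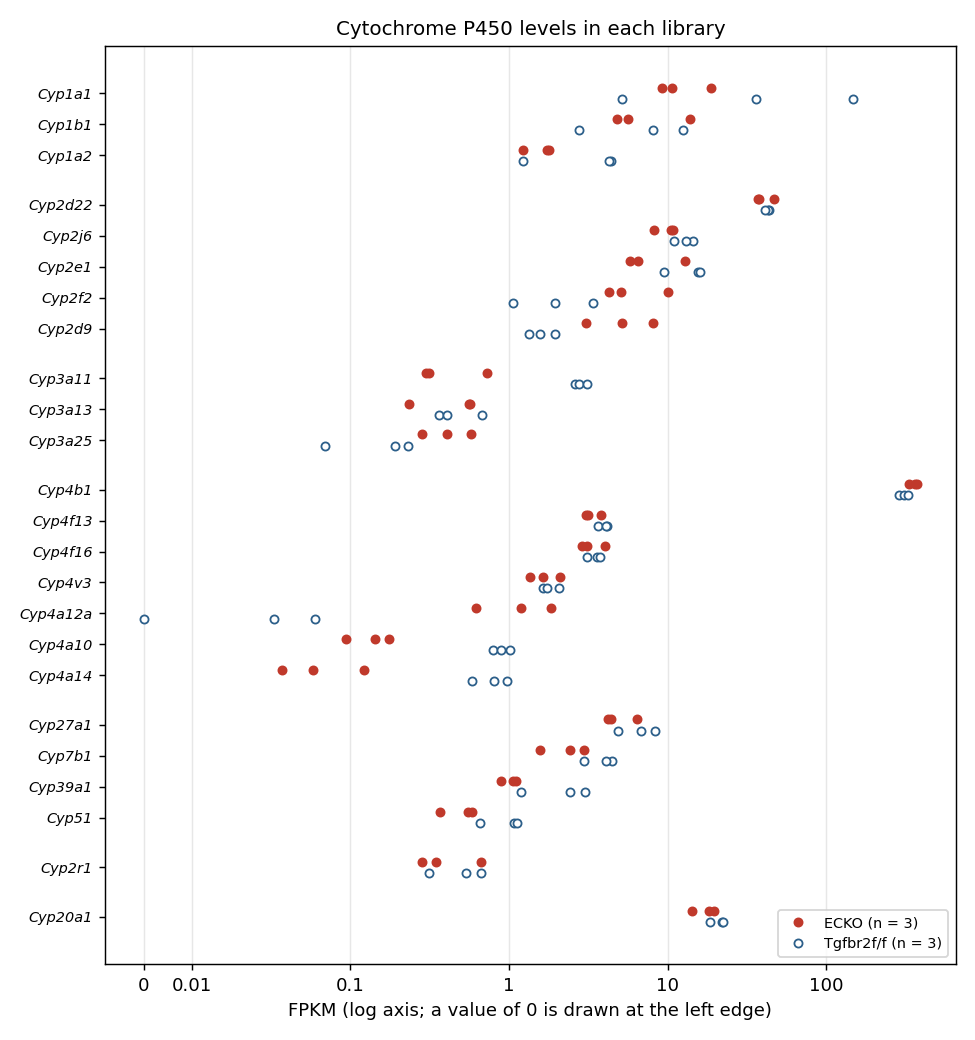
FPKM on a log axis (the authors' unit) of 24 P450 genes in each of the 3 ECKO libraries (filled, upper point of each pair) and 3 Tgfbr2f/f libraries (open, lower point), in blocks by role. Cyp4b1 lies between 288 and 372 FPKM in every library. The groups stand apart without overlap for Cyp4a12a, Cyp4a10, Cyp4a14, Cyp3a11 and Cyp2d9, which passed the test described below. They also stand apart in FPKM for genes that did not pass, among them Cyp4b1, Cyp2f2, Cyp2j6, Cyp39a1 and Cyp51.

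Of the 48 tested P450 genes, 2 rose in ECKO, Cyp4a12a and Cyp2d9, and 3 fell, Cyp3a11, Cyp4a14 and Cyp4a10 (edgeR quasi-likelihood test, Benjamini-Hochberg adjusted p under 0.05 over 13692 genes). Over all genes tested 1.24% rose and 2.79% fell, 4.03% in either direction. The median log2 fold change was -0.05 over the tested P450 genes and 0.01 over all genes, with 22 P450 genes above 0 and 26 below. At an unadjusted p under 0.05 there were 17 P450 genes, 8 higher and 9 lower, beside 23.5% of all genes, 10.4% higher and 13.1% lower. Among the 60 described genes the 2 groups did not overlap in CPM for 8 that were higher and 12 that were lower in ECKO. The same held for 13.8% and 15.6% of all genes with 10 or more counts. An exact permutation test of 3 against 3 libraries cannot give a p below 0.1, so no single-gene permutation p is given.

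**Figure D2:**
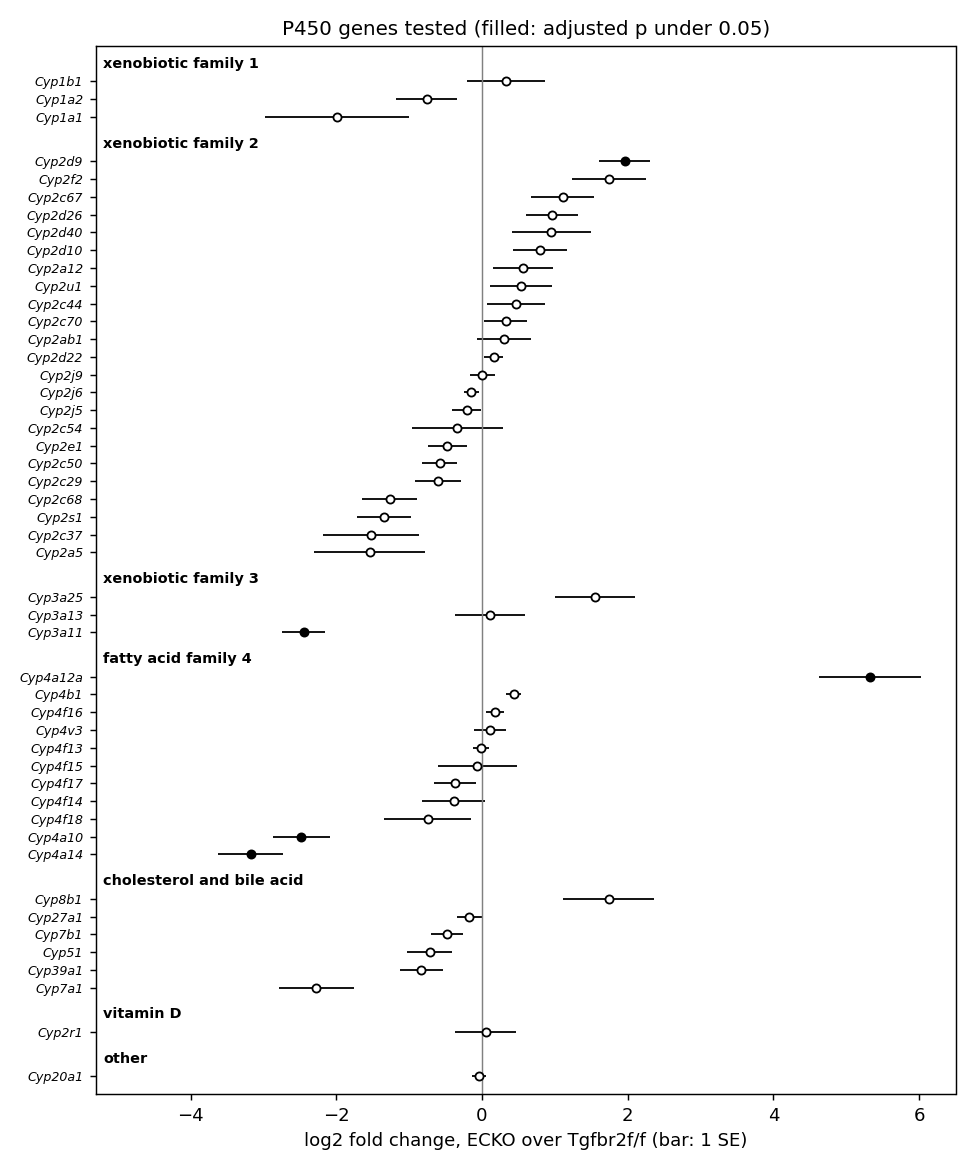
Log2 fold change, ECKO over Tgfbr2f/f, of the 48 tested P450 genes from the edgeR fit, in blocks by role, with a bar of 1 SE to each side. The 5 filled points passed the test: Cyp4a12a at 5.33 and Cyp2d9 at 1.96 to the right, Cyp3a11 at -2.45, Cyp4a10 at -2.48 and Cyp4a14 at -3.17 to the left.

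In the fatty acid family 4, with 14 genes described and 11 tested, 1 gene rose and 2 fell, and all 3 are Cyp4a genes, which hydroxylate fatty acids at the end of the chain. Cyp4a12a (ENSMUSG00000066071) lies at chr4:115299046-115332815 on the plus strand and is a male-biased fatty acid hydroxylase of mouse kidney and liver. It had 52, 76 and 28 counts in the 3 ECKO libraries and 2, 0 and 3 counts in the 3 Tgfbr2f/f libraries. The lowest ECKO library thus stood far above the highest Tgfbr2f/f library. The means were 3.16 ± 1.43 CPM in ECKO and 0.0692 ± 0.0633 CPM in Tgfbr2f/f (SD, n = 3 each), and the fitted difference was 5.33 ± 0.70 on the log2 scale (SE; edgeR adjusted p = 0.0129). Its neighbour Cyp4a12b had 7, 24 and 13 counts in ECKO and 0, 1 and 0 counts in Tgfbr2f/f, too few for the filter. Scaled to library size, the summed counts gave a ratio of 60.6 (ECKO over Tgfbr2f/f) with a 95% counting interval of 10.3 to 2447, which covers counting error only.

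Cyp4a14 and Cyp4a10, fatty acid hydroxylases that are textbook targets of PPAR alpha, went the other way. Cyp4a14 (chr4:115486200-115496142, minus strand) had 3, 6 and 2 counts in ECKO and 42, 49 and 48 counts in Tgfbr2f/f. The highest ECKO library stood far below the lowest Tgfbr2f/f library. The means were 0.221 ± 0.118 CPM in ECKO and 2.05 ± 0.330 CPM in Tgfbr2f/f (SD, n = 3 each), and the fitted difference was -3.17 ± 0.45 on the log2 scale (SE; edgeR adjusted p = 0.0153). Cyp4a10 (chr4:115518264-115533649, plus strand) had 9, 7 and 5 counts in ECKO and 73, 40 and 53 counts in Tgfbr2f/f, again with no overlap. Its means were 0.431 ± 0.158 CPM in ECKO and 2.40 ± 0.573 CPM in Tgfbr2f/f (SD, n = 3 each), and the fitted difference was -2.48 ± 0.39 on the log2 scale (SE; edgeR adjusted p = 0.0236). Of the other 2 Cyp4a genes, which were not tested, Cyp4a31 had 1, 2 and 1 counts in ECKO and 5, 10 and 8 counts in Tgfbr2f/f. Cyp4a32 had 8, 0 and 3 counts in ECKO and 5, 2 and 5 counts in Tgfbr2f/f, which overlap.

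Some of these copies are so alike that a short read cannot always be placed. Over the coding sequence Cyp4a12a and Cyp4a12b are identical at 98.5% of aligned bases, and 35.8% of the 100-base windows of the Cyp4a12a transcript, and 48.9% of its 50-base windows, also occur in Cyp4a12b. Counts of these 2 genes could therefore be split between them in ways the table does not show, while both were higher in ECKO. Cyp4a10 shares 12.7% of its 100-base and 30.5% of its 50-base windows with other transcripts, mostly Cyp4a32, whereas Cyp4a14 shares none of 100 bases and 0.245% of 50 bases. The sources used here give no read length and do not say how the counter treated reads with several matches or whether it used strand.

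None of the remaining family 4 genes passed. Cyp4b1 (chr4:115624725-115647723, minus strand) had 1153, 1048 and 1155 CPM in ECKO and 875, 781 and 822 CPM in Tgfbr2f/f, with every ECKO library above every Tgfbr2f/f library. Its log2 fold change of 0.44 ± 0.10 (SE) did not pass the edgeR test (adjusted p = 0.0565), passed under DESeq2 (adjusted p = 0.00356) and shrank to 0.20 with scaling to total counts and to 0.12 with scaling to hepatocyte markers. In the authors' FPKM, Cyp4b1 was at 331, 362 and 372 in ECKO and at 288, 311 and 328 in Tgfbr2f/f. Cyp4v3, a fatty acid hydroxylase linked in humans to a corneal and retinal dystrophy, had 11.98 ± 2.22 CPM in ECKO and 11.1 ± 2.69 CPM in Tgfbr2f/f (SD, n = 3 each; edgeR adjusted p = 0.796). The 6 Cyp4f genes, among them enzymes that break down leukotrienes, lay between -0.75 and 0.18 on the log2 scale, and none passed. Cyp4f13 had 17.5 ± 1.09 CPM in ECKO and 17.6 ± 0.687 CPM in Tgfbr2f/f, and Cyp4f16 had 19.8 ± 2.03 CPM in ECKO and 17.5 ± 0.359 CPM in Tgfbr2f/f (SD, n = 3 each).

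**Figure D3:**
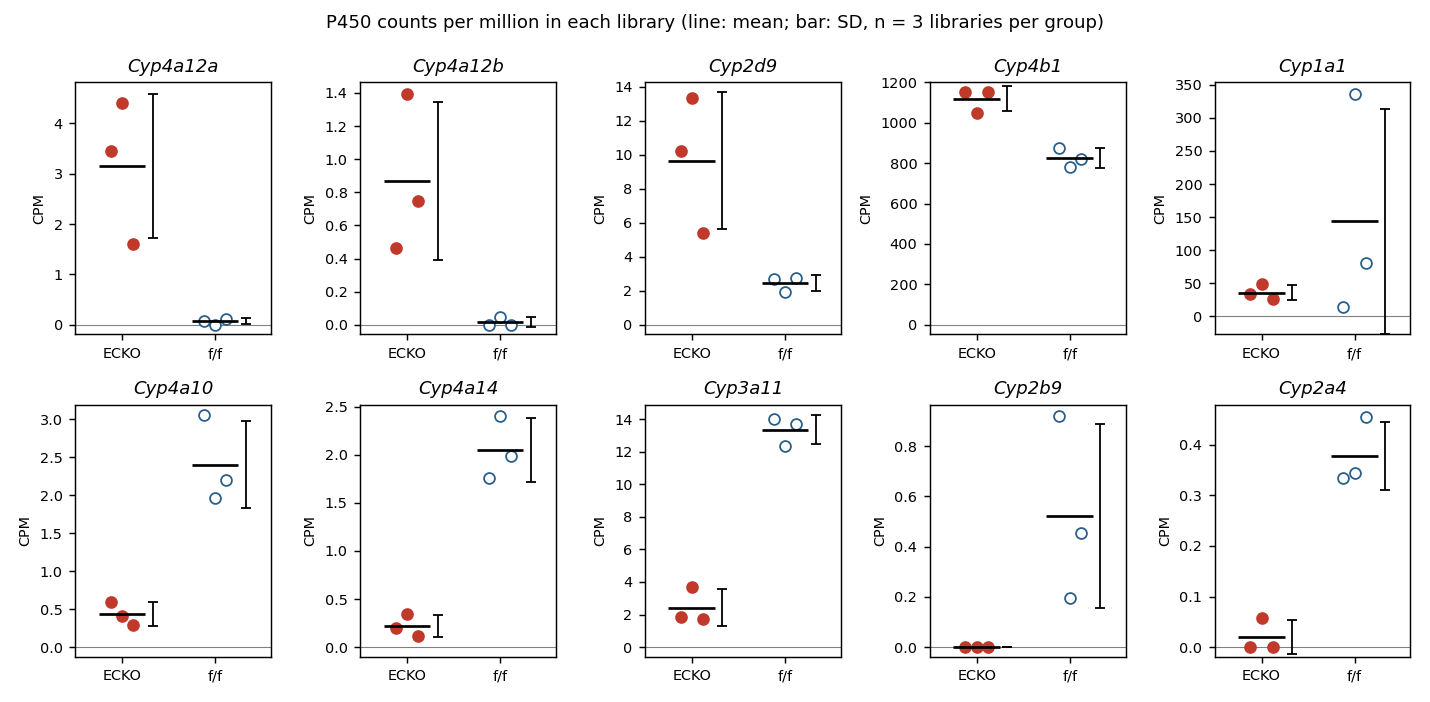
CPM of 10 P450 genes in each library, ECKO (filled) left of Tgfbr2f/f (open) in every panel, with the mean as a line and the SD as a bar (n = 3 each). Cyp4a12a, Cyp4a12b, Cyp2d9 and Cyp4b1 are higher in every ECKO library, Cyp4a10, Cyp4a14, Cyp3a11, Cyp2b9 and Cyp2a4 are lower in every ECKO library, and Cyp1a1 overlaps, with 335 CPM in Tgfbr2f/f library 2. Cyp2b9 had no counts in ECKO, where a gene without counts may lie as high as 0.1996 CPM (library 1), so its distance from Tgfbr2f/f is uncertain.

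In family 3, whose enzymes oxidise many drugs, 1 of the 3 tested genes fell. Cyp3a11 (chr5:145854426-145879964, minus strand), the main drug-oxidising family 3 enzyme of mouse liver and the classical target of the receptor PXR, had 28, 64 and 30 counts in ECKO and 335, 251 and 331 counts in Tgfbr2f/f. Every ECKO library held far fewer counts than any Tgfbr2f/f library. The means were 2.43 ± 1.11 CPM in ECKO and 13.3 ± 0.894 CPM in Tgfbr2f/f (SD, n = 3 each), and the fitted difference was -2.45 ± 0.29 on the log2 scale (SE; edgeR adjusted p = 0.00963). Its neighbour Cyp3a25 had 34, 16 and 25 counts in ECKO and 19, 4 and 13 counts in Tgfbr2f/f, and in CPM every ECKO library was higher. The log2 fold change of Cyp3a25 was 1.56 ± 0.55 (SE) and did not pass (edgeR adjusted p = 0.144). Cyp3a13, a family 3 gene also expressed in the gut, had 1.47 ± 0.651 CPM in ECKO and 1.35 ± 0.640 CPM in Tgfbr2f/f (SD, n = 3 each; edgeR adjusted p = 0.905). Cyp3a11 shares 0.312% of its 100-base windows and 14.8% of its 50-base windows with other transcripts.

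Family 2, the largest group with 29 genes described and 23 tested, had 1 gene that rose, none that fell and 22 that did not pass. Cyp2d9 (chr15:82452377-82456827, plus strand), a steroid hydroxylase known as male-biased in mouse liver, had 154, 230 and 94 counts in ECKO and 65, 39 and 67 counts in Tgfbr2f/f. The groups did not overlap, and ECKO library 3 was the nearest to the Tgfbr2f/f libraries. The means were 9.66 ± 4.02 CPM in ECKO and 2.47 ± 0.480 CPM in Tgfbr2f/f (SD, n = 3 each), and the fitted difference was 1.96 ± 0.35 on the log2 scale (SE; edgeR adjusted p = 0.0309). All 5 Cyp2d genes tested had a log2 fold change above 0, between 0.16 for Cyp2d22 and 1.96 for Cyp2d9, but Cyp2d22 fell below 0 when scaled to total counts, to hepatocyte markers or by the authors' FPKM. Cyp2d10 had 4.59 ± 2.02 CPM in ECKO and 2.64 ± 0.676 CPM in Tgfbr2f/f (SD, n = 3 each; edgeR adjusted p = 0.245). Cyp2d9 and Cyp2d10 share 92.5% of their coding bases, and 9.86% of the 100-base windows and 29.04% of the 50-base windows of Cyp2d9 occur in other transcripts.

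The 250 bases before the RefSeq start are shown for Cyp2d9 and Cyp3a11, the genes of opposite direction that passed the test and have an entry in the RefSeq promoter table (GRCm38.p6). Capitals mark TATAAA and AGGTCA, the letters of a TATA box and of a nuclear receptor half-site, on either strand, and TTCNNNGAA, the letters of a STAT site, was searched as well.
Cyp2d9: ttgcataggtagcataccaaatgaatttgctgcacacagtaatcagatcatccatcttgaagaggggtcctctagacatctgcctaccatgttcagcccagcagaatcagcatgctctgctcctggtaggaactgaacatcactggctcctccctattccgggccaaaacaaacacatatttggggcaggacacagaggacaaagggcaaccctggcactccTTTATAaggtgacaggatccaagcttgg
Cyp3a11: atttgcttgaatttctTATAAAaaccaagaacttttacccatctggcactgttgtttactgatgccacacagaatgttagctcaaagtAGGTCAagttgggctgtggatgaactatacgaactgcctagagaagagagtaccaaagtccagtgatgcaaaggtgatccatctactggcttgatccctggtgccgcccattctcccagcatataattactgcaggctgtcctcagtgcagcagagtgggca
The first lies at chr15:82452127-82452376 on the plus strand and the second at chr5:145879855-145880104 on the minus strand. In Cyp2d9 the TATAAA letters, on the opposite strand, begin 28 bases before the start, and in Cyp3a11 AGGTCA begins 162 bases and TATAAA 234 bases before it. Over the whole table of 27018 promoters (250 bases before to 50 after the start), TATAAA was found in 14.2%, AGGTCA in 16.0% and TTCNNNGAA in 8.47%. Of the 46 described P450 genes with an entry, 19 held TATAAA, 11 held AGGTCA and 2, Cyp4b1 and Cyp4f13, held TTCNNNGAA. The table holds no entry for Cyp4a12a, Cyp4a10 and Cyp4a14.

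The other abundant family 2 genes did not pass. Cyp2e1, the enzyme best known for activating CCl4, had 14.2, 23.3 and 11.3 CPM in ECKO and 18.0, 24.4 and 25.3 CPM in Tgfbr2f/f. The groups overlapped, and the log2 fold change of -0.47 ± 0.27 (SE) had an edgeR adjusted p of 0.331. Cyp2f2, a lung and periportal liver enzyme that activates naphthalene, had 13.8, 22.6 and 10.3 CPM in ECKO and 7.98, 2.06 and 3.81 CPM in Tgfbr2f/f. Every ECKO library was higher, but the log2 fold change of 1.74 ± 0.51 (SE) did not pass the edgeR test (adjusted p = 0.108), while it did under DESeq2 (adjusted p = 0.0038). Cyp2d22, the most abundant gene of the family, had 122 ± 10.1 CPM in ECKO and 109 ± 15.1 CPM in Tgfbr2f/f (SD, n = 3 each; edgeR adjusted p = 0.472). Cyp2j6, which turns arachidonic acid into epoxides, had 38.2 ± 3.15 CPM in ECKO and 42.3 ± 2.69 CPM in Tgfbr2f/f (SD, n = 3 each; edgeR adjusted p = 0.435). The other 2 Cyp2j genes, Cyp2j5 and Cyp2j9, lay at -0.21 and 0.00 on the log2 scale.

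The Cyp2c genes, of which 10 were described and 8 tested, spread from -1.53 for Cyp2c37 to 1.11 for Cyp2c67 on the log2 scale, and none passed. Cyp2c67 and Cyp2c68, identical at 97.2% of coding bases, had opposite signs. Cyp2c67 had 10, 27 and 22 counts in ECKO and 16, 10 and 11 counts in Tgfbr2f/f, and Cyp2c68 had 8, 13 and 7 counts in ECKO and 37, 23 and 34 counts in Tgfbr2f/f. Of the transcript windows of 100 bases, 23.7% of those of Cyp2c67 and 19.8% of those of Cyp2c68 occur elsewhere (52.8% and 43.3% at 50 bases), so both values carry the uncertainty of placing such reads. Cyp2s1, an enzyme mainly of epithelia, had 0.931, 1.57 and 1.15 CPM in ECKO and 2.17, 4.37 and 2.77 CPM in Tgfbr2f/f without overlap, at a log2 fold change of -1.34 ± 0.37 (SE; edgeR adjusted p = 0.0856).

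On chromosome 7 the Cyp2a and Cyp2b genes were mostly too low to test, and the 4 that were not tested all had fewer counts in ECKO. Cyp2b9, a female-biased gene of mouse liver, had no counts in any of the 3 ECKO libraries and 22, 4 and 11 counts in Tgfbr2f/f. The exact 95% counting interval of its ratio (ECKO over Tgfbr2f/f) reached up to 0.144. Cyp2a4, a steroid hydroxylase that is also female-biased in liver, had 0, 1 and 0 counts in ECKO and 8, 7 and 11 counts in Tgfbr2f/f, a ratio of 0.0530 (ECKO over Tgfbr2f/f) with a 95% counting interval of 0.00129 to 0.322. Its near-identical copy Cyp2a5, with 98.5% of coding bases shared, had 7, 20 and 1 counts in ECKO and 20, 48 and 43 in Tgfbr2f/f. These overlap in CPM, at a log2 fold change of -1.54 ± 0.77 (SE, edgeR adjusted p = 0.269). Of the 50-base windows, 38.8% of those of Cyp2a4 and 40.8% of those of Cyp2a5 occur in other transcripts. The values of both genes thus carry the uncertainty of placing such reads. Cyp2b10, the classical target of the receptor CAR, had 0, 0 and 2 counts in ECKO and 10, 2 and 11 counts in Tgfbr2f/f, a ratio of 0.120 with a 95% counting interval of 0.0137 to 0.485, and its CPM overlapped between the groups.

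Family 1, whose genes are classical targets of the aryl hydrocarbon receptor, had no gene that passed among 3 tested. Cyp1a1 had 33.6, 48.7 and 25.8 CPM in ECKO and 14.2, 335 and 81.1 CPM in Tgfbr2f/f. The Tgfbr2f/f libraries spread over more than the whole ECKO range, with library 1 below and libraries 2 and 3 above it. The log2 fold change was -1.99 ± 0.99 (SE; edgeR adjusted p = 0.278), and without Tgfbr2f/f library 2 it was -0.41 (adjusted p = 0.772). Cyp1b1 had 34.7, 70.6 and 26.5 CPM in ECKO and 14.8, 55.1 and 35.5 CPM in Tgfbr2f/f, and in both groups library 2 was the highest. Cyp1a2, in the liver a hepatocyte gene, had 4.06, 3.25 and 2.46 CPM in ECKO and 2.42, 7.22 and 6.91 CPM in Tgfbr2f/f (log2 fold change -0.76 ± 0.42, SE; edgeR adjusted p = 0.316). Ahr, which encodes the receptor itself, had 139, 131 and 136 CPM in ECKO and 93.4, 140 and 147 CPM in Tgfbr2f/f, with a log2 fold change of 0.09 ± 0.17 (SE; edgeR adjusted p = 0.771).

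None of the 6 tested genes of cholesterol and bile acid metabolism passed the edgeR test, while 4 of them had an unadjusted p under 0.05. Cyp7a1, the rate-limiting enzyme of bile acid synthesis, had 2, 7 and 3 counts in ECKO and 20, 25 and 36 counts in Tgfbr2f/f without overlap. Its log2 fold change of -2.27 ± 0.52 (SE) did not pass the edgeR test (adjusted p = 0.0557), but passed under DESeq2 (adjusted p = 0.0168) and in edgeR with total counts (0.0237) or hepatocyte-marker scaling (0.0130). Cyp8b1, which sets the share of cholic acid, had 18, 17 and 18 counts in ECKO and 14, 1 and 7 counts in Tgfbr2f/f, at a log2 fold change of 1.74 ± 0.63 (SE; edgeR adjusted p = 0.15). Their fitted differences thus had opposite signs. Cyp39a1, which hydroxylates an oxysterol, had 3.38 ± 0.468 CPM in ECKO and 6.03 ± 2.07 CPM in Tgfbr2f/f, and Cyp51, which removes a methyl group from lanosterol, had 2.91 ± 0.495 CPM in ECKO and 4.81 ± 1.57 CPM in Tgfbr2f/f (SD, n = 3 each). Cyp7b1, an oxysterol hydroxylase, had 4.06, 6.44 and 5.62 CPM in ECKO and 6.69, 8.30 and 7.57 CPM in Tgfbr2f/f, with no overlap and an edgeR adjusted p of 0.228. Cyp27a1, the mitochondrial sterol hydroxylase, had 16.7 ± 2.68 CPM in ECKO and 18.8 ± 3.35 CPM in Tgfbr2f/f (SD, n = 3 each; edgeR adjusted p = 0.585). Cyp46a1, the brain cholesterol hydroxylase, was not tested and had 2, 1 and 2 counts in ECKO and 10, 4 and 19 counts in Tgfbr2f/f.

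The other roles held few genes. Cyp20a1, a P450 of unknown substrate, had 43.9 ± 3.36 CPM in ECKO and 44.9 ± 0.397 CPM in Tgfbr2f/f (SD, n = 3 each; edgeR adjusted p = 0.852). Cyp2r1, a vitamin D hydroxylase, had 1.74 ± 0.815 CPM in ECKO and 1.68 ± 0.451 CPM in Tgfbr2f/f (SD, n = 3 each; edgeR adjusted p = 0.951). The steroid hormone genes Cyp11a1 and Cyp17a1 were not tested, with sums of 6 and 2 counts in ECKO and 18 and 21 counts in Tgfbr2f/f. The other 3 untested genes, Cyp2a22, Cyp2c38 and Cyp2c39, had sums between 2 and 7 counts in ECKO and between 8 and 21 counts in Tgfbr2f/f, and their CPM overlapped.

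Read along the chromosome, the Cyp4a genes held both directions within a single block of chromosome 4. In order of position, Cyp4a12a and Cyp4a12b were higher in ECKO, Cyp4a14, Cyp4a10 and Cyp4a31 were lower, Cyp4a32 overlapped and Cyp4b1 was higher, and of these only Cyp4a12a, Cyp4a14 and Cyp4a10 passed the test. The family 3 genes of chromosome 5 also held both signs side by side, with Cyp3a11 below and Cyp3a25 above 0. By contrast the 5 Cyp2d genes of chromosome 15 all lay above 0 in the main fit, though Cyp2d22 did not under the other scalings given above.

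**Figure D4:**
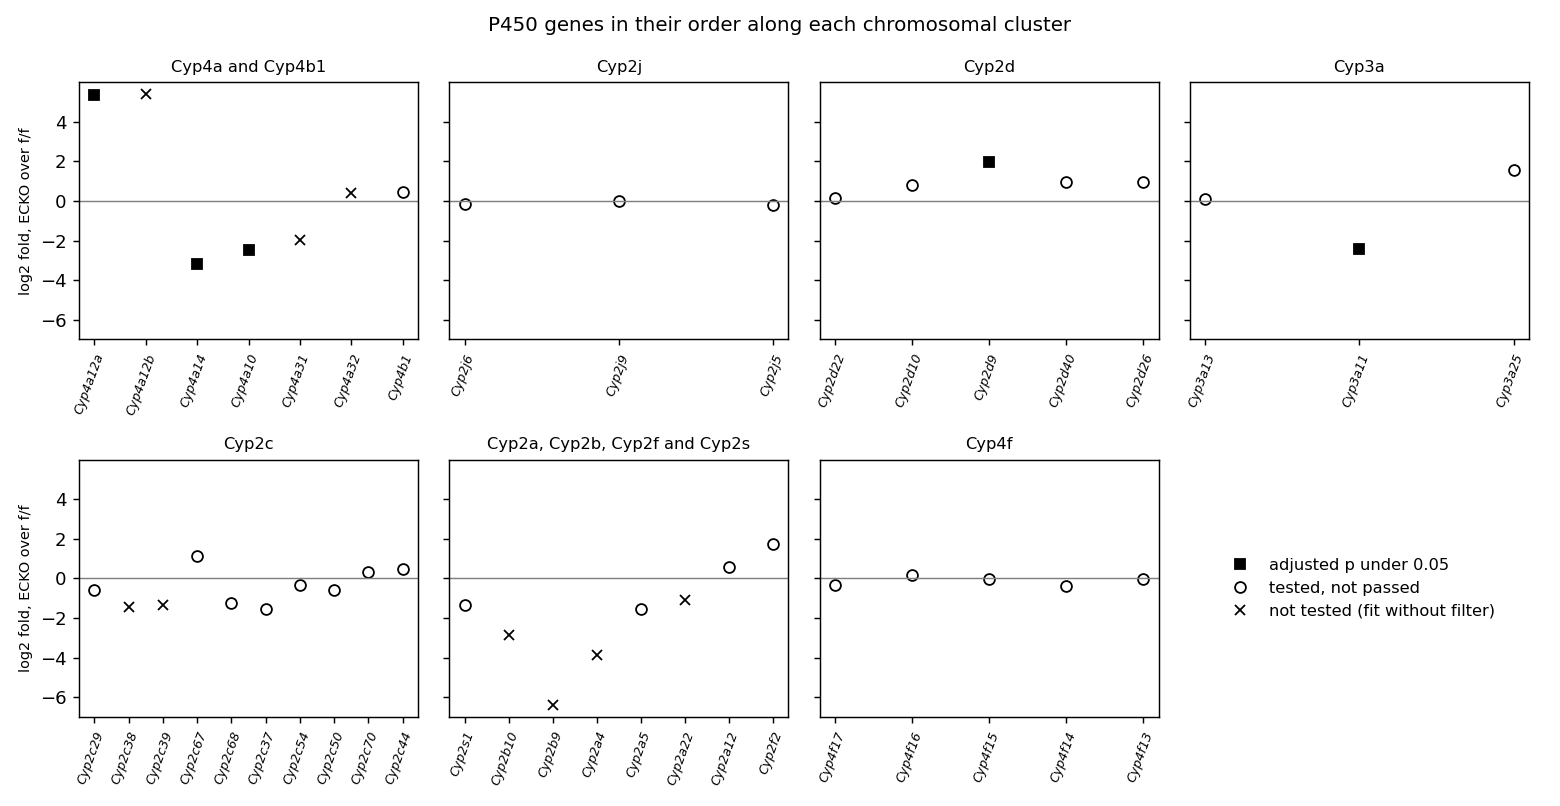
Log2 fold change, ECKO over Tgfbr2f/f, of P450 genes in order of position on the chromosome that holds most of each subfamily (the horizontal axis is rank, not distance). Squares passed the test, open circles did not, and crosses are genes that were too low to test and are drawn from an edgeR fit without the filter, whose value for a gene with no counts in 1 group depends on the prior count. The Cyp4a panel runs from 5.33 for Cyp4a12a to -3.17 for Cyp4a14.

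Beside the P450 genes, other genes known to differ between male and female mouse liver were read. Of 13 tested male-biased hepatocyte genes 8 rose and none fell, with a median log2 fold change of 2.29, all 13 of them above 0 (12 when scaled to hepatocyte markers). Hsd3b5, a steroid dehydrogenase of male liver, had 50, 68 and 25 counts in ECKO and 0, 1 and 0 counts in Tgfbr2f/f, and Selenbp2, a selenium-binding protein, had 130, 91.0 and 63.1 CPM in ECKO and 3.59, 3.63 and 6.25 CPM in Tgfbr2f/f (edgeR adjusted p = 0.00938 and 0.00853). Of 6 tested female-biased genes of 12 listed, 1 fell and none rose. That gene was Acot3, an acyl-CoA thioesterase, which had 1, 4 and 0 counts in ECKO and 30, 22 and 38 counts in Tgfbr2f/f (log2 fold change -3.62 ± 0.70, SE; edgeR adjusted p = 0.0361). Transcripts of the Y-linked genes Ddx3y, Kdm5d, Uty and Eif2s3y were present in all 6 libraries, and Xist, the X-inactivation RNA of females, had 0, 0 and 0 counts in ECKO and 0, 2 and 1 counts in Tgfbr2f/f. None of the 4 tested sex chromosome genes passed, and none had an unadjusted p under 0.05 or a call by DESeq2 or limma-voom.

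Of 14 tested targets of PPAR alpha other than P450 genes, 2 fell and none rose. The median log2 fold change was -0.10, with 7 genes above and 7 below 0, but -0.34 with total counts (3 above, 11 below) and -0.42 with hepatocyte-marker scaling (0 above, 14 below). They were Acot3 and Ehhadh, a peroxisomal enzyme of fatty acid oxidation, which had 14.8, 14.7 and 11.98 CPM in ECKO and 30.7, 24.6 and 21.98 CPM in Tgfbr2f/f (log2 fold change -0.90 ± 0.16, SE; edgeR adjusted p = 0.0314). Of 11 tested targets of xenobiotic receptors other than P450 genes none passed the edgeR test, 3 had an unadjusted p under 0.05, DESeq2 called 1 lower and limma-voom called none. Gadd45b, a stress gene that CAR also induces, had 10.8, 15.1 and 17.2 CPM in ECKO and 48.7, 19.0 and 50.2 CPM in Tgfbr2f/f (edgeR adjusted p = 0.0851). Of 18 tested genes of the sterol synthesis list, which leaves out Cyp51, none passed, with 7 at an unadjusted p under 0.05 and 4 called lower by DESeq2 and none by limma-voom. Sqle, the squalene epoxidase of cholesterol synthesis, had 1.93, 2.32 and 1.09 CPM in ECKO and 3.93, 4.47 and 4.18 CPM in Tgfbr2f/f without overlap (edgeR adjusted p = 0.068).

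Neither the electron donors nor the regulators of P450 genes held a gene that passed. Por, the reductase that supplies electrons to the enzymes of the endoplasmic reticulum, had 90.8, 124 and 99.7 CPM in ECKO and 67.4, 80.1 and 81.3 CPM in Tgfbr2f/f, with every ECKO library higher (log2 fold change 0.46 ± 0.14, SE; edgeR adjusted p = 0.108). It was the one gene of 11 electron donors and heme enzymes with an unadjusted p under 0.05, and DESeq2 and limma-voom called none. Of 22 regulators 6 had an unadjusted p under 0.05, DESeq2 called 1 higher and 1 lower and limma-voom none. Nr1h4, the bile acid receptor FXR, had 17.2, 13.3 and 14.1 CPM in ECKO and 23.5, 20.7 and 27.0 CPM in Tgfbr2f/f (edgeR adjusted p = 0.0535), and Hnf4a, a hepatocyte transcription factor, had 56.1, 44.8 and 30.1 CPM in ECKO and 28.3, 25.5 and 22.4 CPM in Tgfbr2f/f (edgeR adjusted p = 0.0929).

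**Figure D5:**
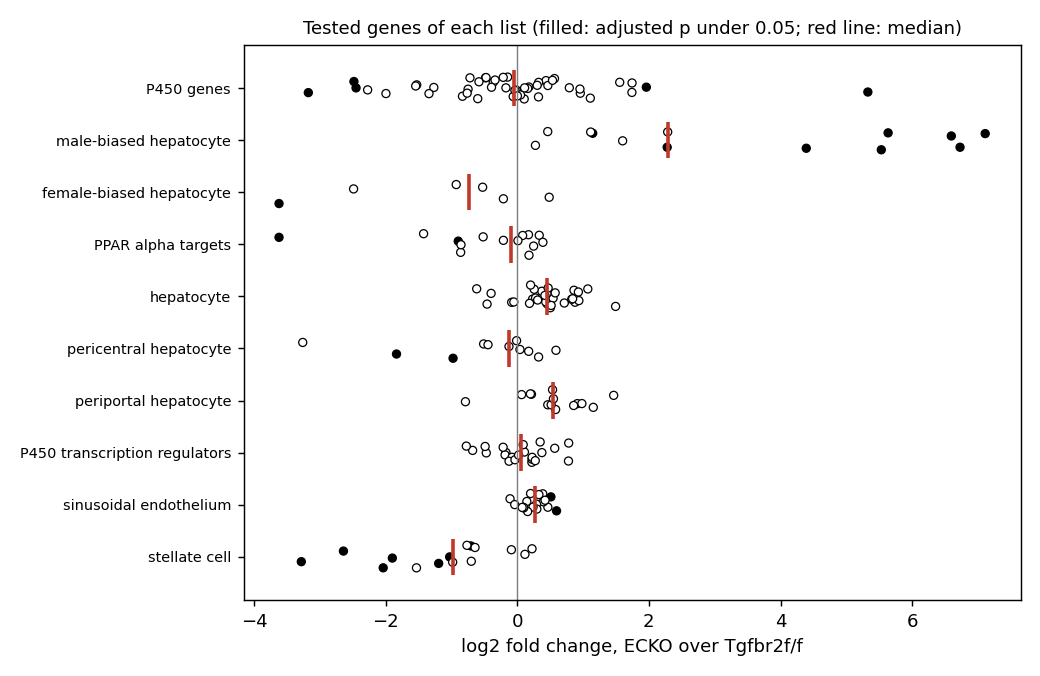
Log2 fold change, ECKO over Tgfbr2f/f, of the tested genes of 10 lists, 1 point per gene, filled where the edgeR adjusted p was under 0.05, with the list's median as a red line. The 48 P450 genes centre on -0.05, the 13 male-biased hepatocyte genes on 2.29 and the 30 hepatocyte markers on 0.45.

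Markers of other liver cells were read because most P450 genes that differed are hepatocyte genes, and in a bulk sample fewer cells of a type and less RNA per cell cannot be told apart. None of the 30 hepatocyte markers passed the edgeR test, 25 lay above 0, the median was 0.45, 6 had an unadjusted p under 0.05, DESeq2 called 4 higher and 1 lower and limma-voom none. Of 11 tested pericentral hepatocyte markers 2 fell, Rgn at -0.97 and Gulo at -1.83 on the log2 scale, and none rose. Their median was -0.12, but -0.39 with total counts and -0.65 with hepatocyte-marker scaling. The sum over the 14 pericentral markers listed was higher in ECKO, between 1058 and 1088 CPM, than in Tgfbr2f/f, between 974 and 1001 CPM. Of 14 periportal markers none passed, with a median of 0.54, 5 at an unadjusted p under 0.05, 2 called higher by DESeq2 and none by limma-voom. When counts were scaled to the hepatocyte markers instead, the log2 fold changes were 4.95 for Cyp4a12a, -2.88 for Cyp3a11, -3.66 for Cyp4a14 and -2.83 for Cyp4a10, all still past the threshold, and 1.53 for Cyp2d9 (adjusted p = 0.0652).

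Markers of other cell types also differed, and their part in the P450 differences was not tested. Of 18 sinusoidal endothelial markers Clec1b and Pecam1 rose and none fell in the edgeR test. At an unadjusted p under 0.05 there were 9, all higher, and DESeq2 called 6 higher and limma-voom none. The median log2 fold change of the 18 markers was 0.27, but 0.03 with total counts and -0.05 with hepatocyte-marker scaling. Of 15 stellate cell markers 7 fell and none rose, with a median of -0.98, and their summed level lay between 1022 and 1587 CPM in ECKO and between 2083 and 3188 CPM in Tgfbr2f/f. B and T cell markers, with 6 tested of 10 listed, had 3 that fell, Cd79a and Ighm among them. An unadjusted p under 0.05 was reached by 5, all lower, and DESeq2 called 4 lower and limma-voom none. The sum over the 10 lay between 7.43 and 14.4 CPM in ECKO and between 19.2 and 41.1 CPM in Tgfbr2f/f. Neutrophil markers, with 3 tested of 8 and Ly6g at 0 in every library, had 1 that fell, Mpo. All 3 were lower at an unadjusted p under 0.05, and DESeq2 called 2 lower and limma-voom none. The sum over the 8 lay between 0.871 and 5.06 CPM in ECKO and between 14.4 and 25.5 CPM in Tgfbr2f/f. None of the 8 cholangiocyte markers passed, though 7 had an unadjusted p under 0.05 and DESeq2 called 6 lower and limma-voom none, and their sum lay between 146 and 197 CPM in ECKO and between 225 and 626 CPM in Tgfbr2f/f. Of 10 Kupffer cell markers none passed, with 3 at an unadjusted p under 0.05, 1 called in each direction by DESeq2 and none by limma-voom. The 13 mitochondrial genes all lay above 0 with a median of 0.91, and none passed, with 7 at an unadjusted p under 0.05, 3 called higher by DESeq2 and none by limma-voom.

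The calls depended on single libraries. Without ECKO library 1 no P450 gene passed, with edgeR adjusted p-values of 0.0589 for Cyp3a11, 0.0603 for Cyp4a12a, 0.0801 for Cyp4a14, 0.0709 for Cyp4a10 and 0.103 for Cyp2d9, and over all genes 14 then rose and 21 fell. The log2 fold changes in that fit of 2 against 3 libraries were -2.29 for Cyp3a11, 5.27 for Cyp4a12a, -3.11 for Cyp4a14, -2.77 for Cyp4a10 and 1.92 for Cyp2d9. Cyp3a11 and Cyp4a12a passed without any of the other 5 libraries, Cyp4a12a at a log2 fold change of 5.95 without Tgfbr2f/f library 3. Cyp4a14 also lost its call without ECKO library 3 (adjusted p = 0.0637) or Tgfbr2f/f library 3 (0.0651). Cyp4a10 also lost it without ECKO library 2 (0.072), ECKO library 3 (0.0861) or Tgfbr2f/f library 3 (0.0875), and Cyp2d9 without ECKO library 2 (0.0763), Tgfbr2f/f library 2 (0.0756) or Tgfbr2f/f library 3 (0.106). Without Tgfbr2f/f library 1, in contrast, 6 P450 genes rose and 7 fell, and over all 14016 genes tested 246 then rose and 766 fell.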

How the data were processed

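The single deposited table gave, per the file headers, raw counts and FPKM per gene for all 6 libraries, and 0 data columns were left out. The submitters' processing notes name HISAT2 2.0.4, StringTie 1.3.0, mm10 and GRCm38.p4. The sources used here give no counter, annotation or strand setting. The deposited counts were tested with edgeR 4.0.16 (R 4.3.3): filterByExpr with its defaults (minimum count 10, minimum total 15), TMM scaling and robust quasi-likelihood F-tests on genotype, two-sided, adjusted by Benjamini-Hochberg over all genes at a threshold of 0.05. No pair of libraries had identical counts. The SE printed with an edgeR log2 fold change was its absolute value divided by the square root of the F statistic. It was not estimated separately and is approximate, above all for genes with counts near 0 in a group. CPM used TMM-scaled totals. The authors' FPKM served for levels and, as log2(FPKM + 0.1) and log2(FPKM + 1) at a mean FPKM of at least 0.1, for limma-trend (limma 3.58.1); on that scale folds of low genes are understated. Counting intervals are exact at 95% and floors are 3 counts, for counting error only. The script was tested on simulated data.

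Genes named are every P450 gene past the threshold and, in each role group, up to 4 tested genes of highest mean FPKM, 24 in all. Others, such as Cyp7a1, Cyp8b1, Cyp2b9, Cyp2s1, Cyp2c67 and Cyp2c68, were named after their values were seen. The members, the role groups and the 18 lists of other genes were chosen with earlier results of these data known. Alternatives were RLE size factors, total counts, TMM without mitochondrial genes, hepatocyte-marker scaling, no filter, DESeq2 1.42.0, limma-voom, FPKM, a replicate block and leaving out each library. Sequences came from GENCODE M21 (GRCm38) and RefSeq (GRCm38.p6). Values of some genes of these lists are not reported here.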

Additional observations from a re-analysis of the deposited data

How the results depend on the processing

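The 2 P450 genes that rose and 3 that fell became 2 and 5 with total count scaling, 2 and 5 with hepatocyte-marker scaling, 5 and 6 with DESeq2, 3 and 5 on log2(FPKM + 0.1), and 1 and 3 with limma-voom. Over all genes the main fit had 170 that rose and 382 that fell of 13692. These became 63 and 1209 with total counts, 30 and 666 with hepatocyte markers and 115 and 200 with limma-voom. DESeq2 gave 453 and 1038 of 15210 genes, and log2(FPKM + 0.1) gave 47 and 565 of 14720. RLE size factors, TMM without mitochondrial genes, no filter and log2(FPKM + 1) kept all 5 calls, as did total counts, DESeq2 and log2(FPKM + 0.1). The fit without the filter gave 3 and 4, adding Cyp4a12b among those that rose and Cyp2b9 among those that fell. DESeq2 called both of these genes as well. On log2(FPKM + 1) there were 2 and 4, with Cyp2c68 added. Over all genes, 223 rose and 505 fell of 20082 without the filter, and 38 and 432 of 14720 on log2(FPKM + 1). Hepatocyte-marker scaling lost Cyp2d9, as did limma-voom (adjusted p = 0.0664). Without 1 library, P450 genes that rose numbered 0 to 6 and those that fell 0 to 7. Over all genes the numbers were then 14 to 246 and 21 to 766. The median P450 log2 fold change of -0.05 moved to -0.28 with total counts, -0.39 with hepatocyte markers and -0.23 on log2(FPKM + 0.1), where the median of all genes was -0.22, -0.33 and -0.22. The P450 share differed by -0.00608 percentage points (ECKO minus Tgfbr2f/f) and by 0.0142 without mitochondrial genes, with a range of -0.0200 to 0.00751 without 1 library.

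Signs turned only for genes that did not pass. With total counts, hepatocyte markers, log2(FPKM + 0.1) and log2(FPKM + 1), in that order, log2 fold changes were -0.0639, -0.179, -0.0719 and -0.0702 for Cyp2d22, -0.213, -0.229, -0.206 and -0.0740 for Cyp2r1, -0.0916, -0.221, -0.0958 and -0.0277 for Cyp3a13, -0.0546, -0.192, -0.0632 and -0.0487 for Cyp4f16, and -0.107, -0.233, -0.113 and -0.0728 for Cyp4v3. Cyp2r1 was -0.0046 with limma-voom and Cyp1b1 -0.299 with hepatocyte markers. Without 1 library, the range was -0.187 to 0.801 for Cyp1b1, -0.381 to 0.322 for Cyp2r1, -0.154 to 0.578 for Cyp3a13, -0.0093 to 0.330 for Cyp4v3, -0.0612 to 0.0345 for Cyp20a1 and -0.0469 to 0.0428 for Cyp4f13. The cause was not tested.

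With the replicate number as a block, 1 P450 gene rose and 3 fell, and Cyp2d9 lost its call (adjusted p = 0.0582). Over all genes 131 then rose and 285 fell of 13692. Deviations of same-numbered libraries correlated at 0.104, 0.164 and -0.0343, so the numbers were not shown to pair the samples. At this depth a gene with no counts in a library may lie up to between 0.124 and 0.1996 CPM.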

Other observations

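The correlation of log2 CPM between libraries lay between 0.970 and 0.989 within a genotype and between 0.957 and 0.973 across genotypes. Of the 60 P450 genes described, between 53 and 57 had at least 1 count in an ECKO library and between 57 and 59 in a Tgfbr2f/f library. The 12 genes that were not tested had lower counts in ECKO for 11 and higher counts for 1, Cyp4a12b, before scaling to library size. The 95% counting interval of the scaled ratio, which covers counting error only, left out 1 for 7 of the 12 and held it for the other 5.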
